A study of Mus musculus with 9 samples.

Results

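The genes described here are the claudins and their partners at the tight junction. They were chosen by name alone, as every row of the deposited transcription table whose symbol is a claudin, a ZO protein (Tjp), a MARVEL domain protein (Marveld or occludin, Ocln), a junctional adhesion molecule (Jam, with F11r), a cingulin (Cgn), a Magi scaffold or a Par polarity protein (Pard). This gave 52 of 24505 genes: 23 claudins, 9 Cldn34 genes spread over the X chromosome, 4 MARVEL proteins and 3 junctional adhesion molecules. The others were 3 ZO proteins, 3 Magi scaffolds, 2 cingulins and 5 Par genes.

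The study grew organoids (mini-guts) from mouse duodenum and labelled 3 cultures by cell type: RANKL as the intestinal M cell, which passes antigen from the gut lumen to immune cells; ENRI as enterocyte, the absorptive cell; and WENRC as intestinal stem cell. The labels do not spell out what the abbreviations stand for, and they give no genotype, strain or age. GRO-seq, a run-on assay that captures transcripts while polymerase is still on the gene, gave 2 libraries of each culture. For H3K27me3, the histone mark of Polycomb repression, the authors pooled 2 ChIP-seq libraries of RANKL (32.7 M tags) and made 1 of WENRC (36.3 M tags). Labels of ENRI and WENRC give mouse 1 or 2, and mouse and the date in the file header cannot be told apart. Labels of RANKL give a replicate number, and the header marks both as merged from repeated sequencing, apart from the other libraries, so that culture and sequencing cannot be told apart. Nothing says that the RANKL libraries came from separate animals or cultures, so their spread may be technical.

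A tight junction seals the gap between neighbouring epithelial cells near their apex. Claudins, which span the membrane with their ends in the cell, form its strands, and the choice of claudin sets whether the seal lets ions through. Occludin, tricellulin (Marveld2) and Marveld3 sit in the same strands, and junctional adhesion molecules lie beside them. The ZO proteins, cingulins and Magi proteins tie the strands to actin from inside, and the Par proteins (Pard3, Pard6 and atypical protein kinase C) place the junction between the apical and the lateral membrane. In the intestine, claudin-2 forms a pore for cations and water and is known from crypts, claudin-15 is a second cation channel, and claudin-7 lies largely on the lateral membrane.

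Transcription is given as deposited, on a log2 scale normalized by the authors, over whole genes. This scale pulls the libraries together at genes with few reads, so that a change of a low gene is understated. How deeply GRO-seq was read is unknown. Of the 52 genes, 32 passed the filter of at least log2 of 10 in at least 2 libraries and were tested among 16563 genes. The other 20 had values from -1.98 to 2.92 in every library. They were 12 claudins, among them Cldn1, Cldn5 and Cldn8, and 8 of the 9 Cldn34 genes. Cldn17 and Cldn34-ps were listed at 0 in all 6 libraries. Called means a limma adjusted p (FDR) under 0.05 in 1 fit of all 6 libraries. The authors' log2 changes were larger also for called genes of higher level. In RANKL against ENRI they were -2.36 for Pard6b, -1.69 for Cldn2 and -2.31 for Cldn23, against -2.06, -1.33 and -1.69 here. The GRO-seq folds below are from the deposited scale and can be understated too.

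Of 9 M cell markers, 8 were called higher in RANKL than in ENRI and 7 higher than in WENRC. All 7 stem markers were called higher in WENRC than in ENRI, and 8 of 10 enterocyte markers lower. Enterocyte markers were also higher in RANKL than in WENRC, 5 of 10. Goblet, Paneth, tuft and enteroendocrine markers passed the filter too (6 of 6, 5 of 5, 5 of 5 and 4 of 5). Called higher in RANKL than in ENRI were 1 of 6 goblet, 2 of 5 Paneth, 3 of 5 tuft and 1 of 4 enteroendocrine markers, and higher than in WENRC 3, 2, 2 and 1. Of goblet markers 4 of 6 were lower in WENRC than in ENRI, and of Paneth markers 1 of 5 was higher. In bulk cultures fewer cells of a type and less RNA per cell cannot be told apart. Of markers from outside the epithelium, 5 of 8 endothelial, 1 of 7 fibroblast (Pdgfrb) and 6 of 8 immune genes passed the filter. No marker was listed at 0.

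Promoters of 4 genes are shown: Cldn2, Pard6b and Pard3b, which were called in RANKL against both other cultures, and Marveld1, where an H3K27me3 region lies over the start. They are the 250 bases before the start site as given by RefSeq on GRCm38.p6, a later build than the mm9 of the deposited tables. In the first, capitals mark a TATAAA box that begins 35 bases before the start. In the others, capitals mark each CG dinucleotide, the feature of the CpG islands on which Polycomb complexes commonly act. The windows lie at chrX:139800558-139800807, chr2:168080754-168081003, chr1:61638574-61638823 and chr19:42147139-42147388, all on the plus strand.
Cldn2: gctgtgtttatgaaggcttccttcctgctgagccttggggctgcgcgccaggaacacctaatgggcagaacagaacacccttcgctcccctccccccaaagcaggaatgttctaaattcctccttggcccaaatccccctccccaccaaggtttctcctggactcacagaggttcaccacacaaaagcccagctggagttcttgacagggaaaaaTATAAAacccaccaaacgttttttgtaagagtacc
Pard6b: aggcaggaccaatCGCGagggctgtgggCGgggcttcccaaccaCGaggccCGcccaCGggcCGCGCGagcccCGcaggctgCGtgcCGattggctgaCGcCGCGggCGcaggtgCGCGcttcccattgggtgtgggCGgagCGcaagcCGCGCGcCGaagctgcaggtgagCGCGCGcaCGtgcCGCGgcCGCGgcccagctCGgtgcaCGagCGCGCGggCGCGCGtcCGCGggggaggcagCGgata
Pard3b: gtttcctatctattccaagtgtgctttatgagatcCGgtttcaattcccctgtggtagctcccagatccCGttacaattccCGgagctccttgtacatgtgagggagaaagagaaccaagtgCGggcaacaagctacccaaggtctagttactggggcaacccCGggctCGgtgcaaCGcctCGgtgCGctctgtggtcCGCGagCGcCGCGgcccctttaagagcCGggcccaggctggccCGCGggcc
Marveld1: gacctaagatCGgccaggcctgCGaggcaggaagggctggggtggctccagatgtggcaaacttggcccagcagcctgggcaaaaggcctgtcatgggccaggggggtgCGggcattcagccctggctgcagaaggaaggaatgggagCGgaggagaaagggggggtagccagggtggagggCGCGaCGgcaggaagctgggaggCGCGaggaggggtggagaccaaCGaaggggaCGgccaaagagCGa

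The Pard6b window held 43 CG dinucleotides, that of Pard3b 17 and that of Marveld1 12. Of the 52 genes, 40 had an entry among the RefSeq promoters, which run from 250 bases before to 50 after the start. Counting the window richest in CG for each gene, the 25 claudins and Cldn34 genes had a median of 7 CG dinucleotides (range 0 to 28), and the 15 other genes a median of 26 (range 8 to 47). The median over all 27025 genes with a promoter was 8. TATAAA, read on both strands, occurred at Cldn2, Cldn34d, Marveld2 and Pard3, and in 13.6% of all 32851 promoters. Of the motifs searched for factors of this tissue, GAGGAAGT (Spi and Ets type) was found at Magi1 and Pard3 (3.20% of all promoters) and ATCAAAG (Tcf type) at Cldn18 (3.73%), while TCAAGGTCA (Esrr type, 0.423%), AAGGTCA, which lies within it (4.72%), CAAAGTCCA (Hnf4 type, 0.475%), TTTATGG (Cdx type, 2.75%) and AACCGGTT (Grhl type, 0.146%) were found in none of the 55 windows of the 40 genes. A match describes the letters only.

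Divided by gene length, claudins were led by Cldn3 in every culture, followed by Cldn7 in ENRI and RANKL and by Cldn4 in WENRC. This order depends on length, and Cldn3 is a gene of 1262 bp. Over the whole gene, Cldn7 and Cldn15 lay above Cldn3 in every culture, with ENRI means of 10.38 and 10.89 against 9.25. Per kb of gene, the mean log2 level in ENRI was 8.92 for Cldn3 and 8.74 for Cldn7, followed by 7.89 for Cldn15, 7.79 for Cldn23, 7.09 for Cldn4, 5.41 for Cldn2 and 4.72 for Cldn12. In RANKL the order was Cldn3 at 8.73, Cldn7 at 7.94, Cldn4 at 7.26, Cldn15 at 6.61, Cldn23 at 6.09, Cldn12 at 4.30 and Cldn2 at 4.09. Cldn2 thus stood above Cldn12 per kb in ENRI and below it in RANKL. In WENRC, Cldn3 had 8.78, Cldn4 8.31 and Cldn7 8.25. The ENRI mean of Cldn4 rests on libraries far apart, at 9.33 and 6.56 over the whole gene. Cldn10, Cldn14 and Cldn18 were below 0 on this scale in every culture, and Cldn22 lay between 3.28 and 3.39. Among the partners, F11r was highest per kb in RANKL at 7.11, and Cgn followed at 6.40, while Pard6b was highest in ENRI at 7.46. Of the 32 tested genes, Magi2 was lowest in every culture, from -3.02 in WENRC to -2.54 in ENRI.

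The comparison of RANKL with ENRI asked how M cell cultures differ from enterocyte cultures. In RANKL, the claudins Cldn2, Cldn7 and Cldn23 and the polarity gene Pard6b fell and Pard3b rose. Of the 32 genes, 5 were called (15.6%), 1 higher and 4 lower, against 20.9% of all genes tested (10.4% higher and 10.5% lower). The share is below the background and is no result about the group as such. The median change was -0.08 against -0.0048 for all genes. By role, 3 of 11 claudins were called lower and none higher, 1 of 5 Par genes was called in each direction, and none of the 4 MARVEL, 3 junctional adhesion, 3 ZO, 3 Magi and 2 cingulin genes or the 1 tested Cldn34 gene was called. With the replicate block the same 5 genes were called (16.4% of all genes), with upper-quartile recentring these and Magi3 (23.6%), and with only the 4 libraries compared 4 of them (11.6%). Limma called none of the 32 without RANKL 1 (0.670% of all genes) or RANKL 2 (0.386%). It called 10 without ENRI 1 (42.1%) and 9 without ENRI 2 (26.8%). Such fits leave 1 library in a culture, so that the spread of that culture is not measured.

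**Figure D1:**
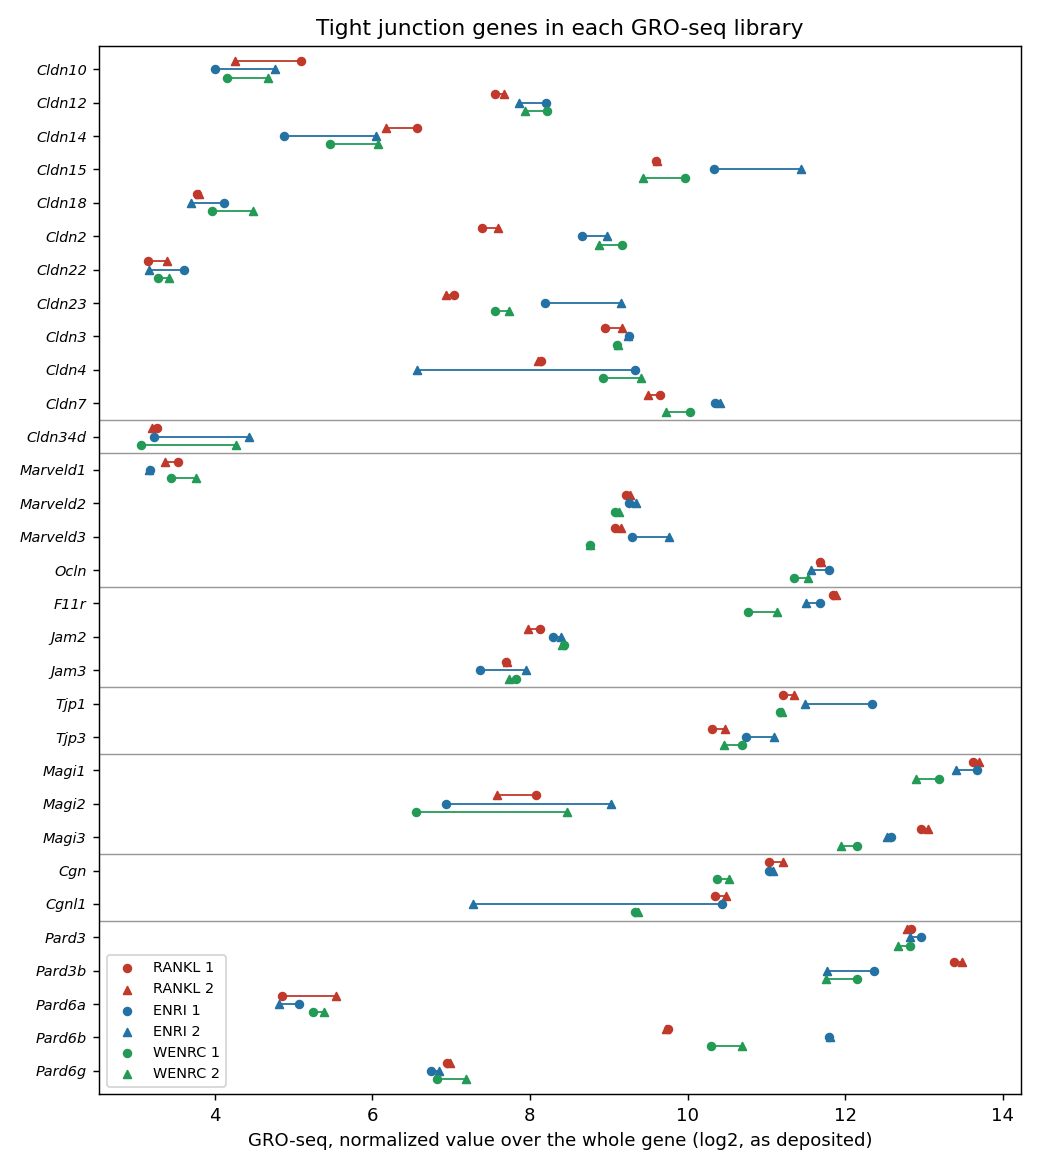
Each row is 1 tested gene, and each point is 1 GRO-seq library on the deposited log2 scale, coloured by culture, with circles for number 1 and triangles for number 2, and lines joining the 2 libraries of a culture. Both RANKL libraries lie below the other 4 for Cldn2, Cldn23 and Pard6b and above them for Pard3b, and the ENRI libraries lie far apart for Cldn4 and Cgnl1.

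Cldn2 was lower in RANKL than in both other cultures. This gene (NM_016675, mm9 chromosome X, 136335347 to 136345927, plus strand) had values of 7.39 and 7.59 in RANKL, 8.66 and 8.97 in ENRI, and 9.16 and 8.88 in WENRC. The RANKL libraries lay below all 4 others, and ENRI and WENRC overlapped. The change was -1.33 against ENRI (SE 0.19, limma FDR 0.00870), or 2.51-fold, and -1.53 against WENRC (SE 0.19, limma FDR 0.00792), or 2.89-fold. Between WENRC and ENRI it was 0.20 (limma FDR 0.516). It kept both calls under upper-quartile recentring and quantile normalization, with the replicate block and in the fits of only the 4 libraries compared.

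Cldn23, a claudin with a single exon, and Cldn7 were lower in RANKL than in ENRI. Cldn23 (NM_027998, chromosome 8, 36887763 to 36889613, minus strand) had 7.03 and 6.93 in RANKL, 8.19 and 9.16 in ENRI, and 7.55 and 7.73 in WENRC, so that the cultures did not overlap. Its change against ENRI was -1.69 (SE 0.32, limma FDR 0.0184), or 3.23-fold. With only the 4 libraries compared, the FDR was 0.0514. Against WENRC the change of -0.66 was not called (limma FDR 0.237), and it was with only the 4 libraries compared (limma FDR 0.0171). Cldn7 (NM_001193619, chromosome 11, 69778281 to 69781388, plus strand) had 9.65 and 9.50 in RANKL, 10.34 and 10.41 in ENRI, and 10.03 and 9.73 in WENRC. Its change against ENRI was -0.80 (SE 0.15, limma FDR 0.0192), or 1.74-fold, and that against WENRC was -0.30 (limma FDR 0.255).

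Of the genes called, Pard6b fell most and Pard3b rose most in RANKL against ENRI, and both are Par genes. Pard6b encodes 1 of the Par6 adaptors that hold atypical protein kinase C and Cdc42 at the apical junction. It (NM_021409, chromosome 2, 167906504 to 167926703, plus strand) had 9.75 and 9.73 in RANKL, 11.79 and 11.80 in ENRI, and 10.30 and 10.69 in WENRC. The order from RANKL over WENRC to ENRI held for every library. The change of RANKL against ENRI was -2.06 (SE 0.16, limma FDR 0.00222), or 4.17-fold. It was -0.76 against WENRC (SE 0.16, limma FDR 0.0372) and -1.30 for WENRC against ENRI (SE 0.16, limma FDR 0.0114). The paralogs Pard6a and Pard6g were not called: their changes between RANKL and ENRI were 0.25 and 0.18, with limma FDRs of 0.549 and 0.560. Whether Pard6b differs from its paralogs in its change was not tested.

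Pard3b, a paralog of the scaffold Pard3, showed the opposite pattern. It (NM_001081050, chromosome 1, 61685398 to 62688858, plus strand, a gene of 1003460 bp) had 13.39 and 13.48 in RANKL, 12.36 and 11.77 in ENRI, and 12.14 and 11.76 in WENRC. The RANKL libraries lay above the other 4, and ENRI and WENRC overlapped. The change was 1.37 over ENRI (SE 0.25, limma FDR 0.0172), or 2.58-fold, and 1.48 over WENRC (SE 0.25, limma FDR 0.0188), or 2.79-fold. Under quantile normalization the change over WENRC was 0.87 and was not called (limma FDR 0.0631). Pard3 itself had values from 12.67 to 12.97 in all 6 libraries, with changes of -0.09 and 0.07 in RANKL (limma FDR 0.748 and 0.839).

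Enterocyte markers were also lower in RANKL than in ENRI. Of the 10 markers, 5 were called lower and none higher, with a median change of -1.01. The log2 of their summed values ranged from 14.73 to 14.87 in RANKL, 15.68 to 16.48 in ENRI and 12.43 to 13.34 in WENRC. Their part in the falls of Cldn7, Cldn23 and Pard6b was not tested. The 7 stem markers had summed values from 13.72 to 13.81 in RANKL, 11.81 to 11.93 in ENRI and 14.11 to 14.19 in WENRC. The sum was thus higher in RANKL than in ENRI. Of the 7 markers, 5 were called higher in RANKL than in ENRI and 0 lower, with a median change of 1.39. Lgr5 had 8.75 and 8.84 in RANKL, 8.89 and 8.51 in ENRI, and 11.64 and 11.99 in WENRC. The part of the stem markers in the lower level of Cldn2 in RANKL was not tested. Of other markers, Pdgfrb, the 1 tested fibroblast gene, was called higher in RANKL than in both cultures (9.21 and 9.26 in RANKL, at most 7.68 elsewhere), and so were Cd74 among the immune genes, Gfi1b and Pou2f3 among the tuft genes and Mmp7 and Defa24 among the Paneth genes. The endothelial genes Vwf and Esam were called higher in RANKL than in ENRI, with changes of 1.23 and 0.78. Esam was also called higher in WENRC than in ENRI, by 1.27. None of the 5 tested endothelial genes was called in RANKL against WENRC. The part of these markers in the rise of Pard3b was not tested.

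The comparison of RANKL with WENRC asked how M cell cultures differ from stem cell cultures. Besides Pard3b, the adhesion molecule gene F11r and the scaffold genes Magi3 and Cgn were higher in RANKL, and Cldn2 and Pard6b were lower. Of the 32 genes, 6 were called (18.8%), 4 higher and 2 lower, against 12.1% of all genes tested (8.53% higher and 3.62% lower). The median change was -0.04, and that of all genes -0.0073. The fit of the 4 libraries alone called 12 genes (37.5%), 8 up and 4 down, against 31.4% of all genes (18.1% up and 13.2% down). In that fit the higher genes also held Cgnl1, Magi1 and Marveld3, and the lower genes Cldn4 and Cldn23. The authors' deposited table had 10 of the 32 at an adjusted p under 0.05, 7 higher and 3 lower, against 27.8% of all genes (16.7% and 11.1%). Limma called none of the 32 without RANKL 1 or RANKL 2 (0.00% of all genes), and none without WENRC 1 (1.58%) or WENRC 2 (1.30%). It called 12 without ENRI 1 (31.1%) or ENRI 2 (31.3%), and 3 with the replicate block (8.85%).

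**Figure D2:**
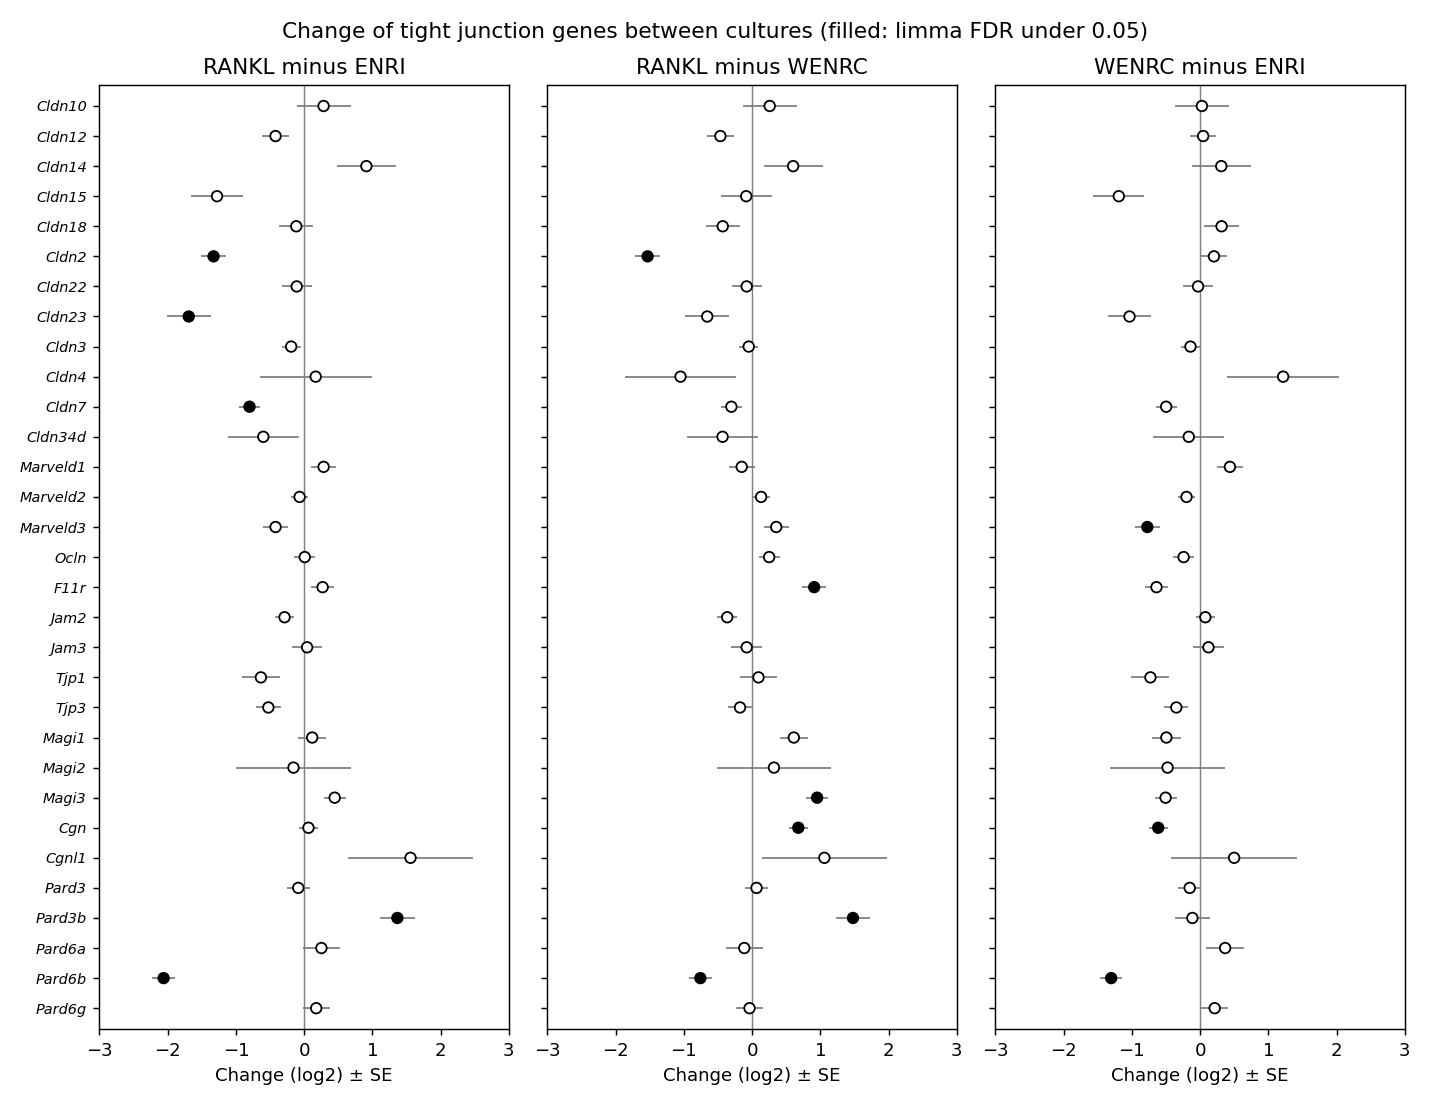
The log2 change of tested genes is plotted with its SE for RANKL minus ENRI, RANKL minus WENRC and WENRC minus ENRI, with filled points at a limma FDR under 0.05. Filled points lie mostly left of 0 in the first panel (4 of 5), on both sides in the second (4 right, 2 left) and left of 0 in the third (3 of 3).

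F11r encodes junctional adhesion molecule A, which binds ZO-1 and Par3. It (NM_172647, chromosome 1, 173367692 to 173394724, plus strand) had 11.84 and 11.89 in RANKL, 11.67 and 11.51 in ENRI, and 10.77 and 11.13 in WENRC. The WENRC libraries lay below the other 4. The change of RANKL over WENRC was 0.91 (SE 0.17, limma FDR 0.0252), or 1.88-fold. Jam2 and Jam3 were not called in any comparison, with values from 7.98 to 8.43 and from 7.36 to 7.96.

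Magi3, a scaffold with several PDZ domains, and Cgn, cingulin, which links ZO proteins to actomyosin, were lowest in WENRC as well. Magi3 (NM_001159354, chromosome 3, 103817188 to 104024329, minus strand) had 12.97 and 13.04 in RANKL, 12.59 and 12.53 in ENRI, and 12.16 and 11.95 in WENRC, with no overlap between cultures. Its change over WENRC was 0.95 (SE 0.16, limma FDR 0.0187), or 1.94-fold. Cgn (NM_001293727, chromosome 3, 94563991 to 94590437, minus strand) had 11.03 and 11.21 in RANKL, 11.03 and 11.09 in ENRI, and 10.37 and 10.52 in WENRC. Its change over WENRC was 0.68 (SE 0.14, limma FDR 0.0327), or 1.60-fold.

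These rises over WENRC depended on the scaling of the libraries. Quantile normalization gave 0.50 for F11r, 0.41 for Magi3 and 0.35 for Cgn, with limma FDRs of 0.178, 0.101 and 0.166, and left 2 called genes, Cldn2 and Pard6b, both lower, against 13.1% of all genes (7.70% higher and 5.41% lower). Upper-quartile recentring moved the median of all genes to -0.12, called 5 genes (14.1% of all genes) and kept F11r (limma FDR 0.0444), Magi3 (0.0133) and Pard3b (0.0165), but not Cgn (0.0544). The signs held under both scalings for these 4 genes. Magi1, not called with all 6 libraries, had a change of 0.61 that became -0.14 under quantile normalization.

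WENRC was compared with ENRI in cultures of the same 2 mice, with columns numbered 1 and 2 in the table taken as mouse 1 and mouse 2, a match by number only. Pard6b, Cgn and Marveld3 were lower in WENRC, and no gene of the group was called higher. The error in this fit also draws on the RANKL libraries, whose spread may be technical. Over all tested genes, the SD of the difference between 2 libraries was 0.22 in RANKL, 0.70 in ENRI and 0.42 in WENRC. With only the 4 libraries compared, none of the 32 genes was called. Of the 32 genes, 3 were called (9.38%), against 14.6% of all genes tested (4.85% higher and 9.74% lower). The median change was -0.16, and that of all genes -0.01. Marveld3 (NM_212447, chromosome 8, 112471809 to 112486105, minus strand), a MARVEL protein of the strands, had 8.76 and 8.76 in WENRC, 9.30 and 9.77 in ENRI, and 9.08 and 9.16 in RANKL. Its change was -0.77 (SE 0.18, limma FDR 0.0438), and that of Cgn was -0.61 (SE 0.14, limma FDR 0.0406).

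With the library number as a replicate block over all 6 libraries, Pard6b alone was called (limma FDR 0.0233), against 9.09% of all genes. This block also holds the RANKL libraries, which carry no mouse number. Marveld3 and Cgn were not called in it (limma FDR 0.0601 and 0.0691). Pard6b alone was called with quantile normalization (19.1%), upper-quartile recentring (18.4%), no filter (8.55%) or no variance trend (13.1%). With the RANKL libraries outside the block, which is then by mouse number, 5 genes were called (21.4%). They were Pard6b (limma FDR 0.00896), Marveld3 (0.0288), Cgn (0.0311), Cldn23 (0.0314) and F11r (0.0478). With only the 4 libraries compared, none of the 32 was called with or without the block (limma FDR for Pard6b 0.0762 and 0.0673), and 7 without the block had an unadjusted p under 0.05. Of all 16563 genes, limma called 0 without the block and 0.749% with it, and 4074 and 4325 had an unadjusted p under 0.05. Limma called none of the 32 without RANKL 1, RANKL 2 or WENRC 2 (0.00% of all genes) or WENRC 1 (0.235%). It called 10 without ENRI 1 (40.1%) and 7 without ENRI 2 (18.8%). The authors' deposited table had 3 of the 32 at an adjusted p under 0.05, Pard6b (4.46e-05), Cldn15 (0.0264) and Cldn23 (0.0418), with Marveld3 at 0.0626 and Cgn at 0.0768. It had 12.5% of all genes under that threshold.

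The direction within each mouse was the same for 25 of the 32 genes (78.1%, against 74.5% of all genes tested). In both mice 19 of the 32 were lower and 6 higher in WENRC, against 6331 lower and 6015 higher of all 16563 genes. This split was read on the deposited scaling only. Pard6b changed by -1.49 in mouse 1 and -1.11 in mouse 2. Cldn15, the cation channel claudin, had -0.37 and -2.02, with values of 10.33 and 11.44 in ENRI, 9.96 and 9.43 in WENRC and 9.60 and 9.62 in RANKL, and was not called by limma in any comparison with all 6 libraries (limma FDR 0.0607 for RANKL against ENRI). In the authors' deposited table it had an adjusted p of 0.00300 for RANKL against ENRI (-1.61) and 0.0264 for WENRC against ENRI (-1.45). Its change of RANKL against ENRI was -1.28 with all libraries, -1.83 without ENRI 1 and -0.72 without ENRI 2. Cldn4 and Cgnl1 differed most between the mice, each lower in WENRC in mouse 1 and higher in mouse 2.

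**Figure D3:**
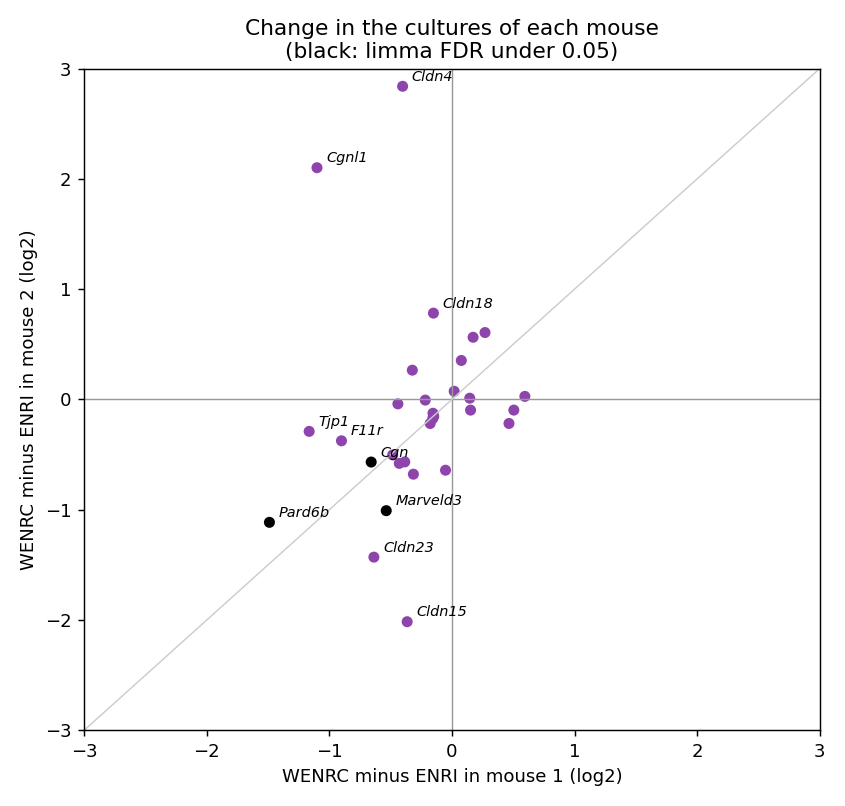
Each point is 1 tested gene, with its log2 difference between WENRC and ENRI in mouse 1 on the x axis and in mouse 2 on the y axis. Black points were called by limma and lie below 0 on both axes, while Cldn4 and Cgnl1 lie far up on the left, with differences of 2.84 and 2.10 in mouse 2.

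Cldn4, a claudin of the intestinal surface epithelium, had 9.33 in ENRI 1 and 6.56 in ENRI 2, against 8.13 and 8.10 in RANKL and 8.93 and 9.40 in WENRC. RANKL therefore lay between the 2 ENRI libraries. Its change of RANKL over ENRI was 0.17 (limma FDR 0.903), but -1.21 without ENRI 2 and 1.55 without ENRI 1. Cgnl1, paracingulin, had 10.44 in ENRI 1 and 7.28 in ENRI 2, against 10.34 and 10.49 in RANKL and 9.34 and 9.38 in WENRC. The change over ENRI was 1.56 (limma FDR 0.273), -0.02 without ENRI 2 and 3.14 without ENRI 1. For these 2 genes the ENRI level is thus set by which library is read.

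A gap of more than 1 on the log2 scale between libraries of a culture occurred in 6 of the 32 genes in ENRI (18.8%, against 11.1% of all genes), in 2 in WENRC (6.25%, against 3.41%) and in none in RANKL (0.139% of all genes). Besides Cldn4, Cgnl1 and Cldn15, the ENRI genes were Cldn14, Magi2 and Cldn34d. Magi2 and Cldn34d were higher in mouse 2 in both cultures. Magi2 had 6.94 and 9.03 in ENRI and 6.55 and 8.46 in WENRC, with 8.08 and 7.58 in RANKL. Cldn34d had 3.22 and 4.44 in ENRI and 3.07 and 4.27 in WENRC.

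The remaining tested genes were called in none of the 3 comparisons. Of the ZO genes, Tjp1 ranged from 11.17 to 12.34 and Tjp3 from 10.32 to 11.10 over the 6 libraries. Tjp1 was highest in ENRI 1 (12.34), with 11.49 in ENRI 2. Ocln ranged from 11.35 to 11.79 and Marveld2, tricellulin, from 9.08 to 9.35. Cldn3 ranged from 8.95 to 9.26 and Cldn12 from 7.56 to 8.22. Cldn10, Cldn18, Cldn22, Marveld1 and Pard6a had no value above 5.54, where the scale compresses changes. Cldn3 overlaps Wbscr25 by 43 bp, Tjp3 overlaps Apba3 by 59 bp, both on the other strand, and 104519 bp of Magi1 overlap 4930511A08Rik, so reads there cannot be assigned with certainty.

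Other junction genes were read from lists written from general knowledge. Their medians in RANKL minus ENRI, RANKL minus WENRC and WENRC minus ENRI were -0.31, 0.10 and -0.23 for the tight junction list, -0.13, 0.18 and -0.27 for the polarity list, -0.08, 0.03 and -0.26 for the adherens junction list, and -0.26, -0.01 and -0.37 for the desmosome list. The medians of all genes were between -0.01 and 0. Shares of genes called are read against 20.9%, 12.1% and 14.6% of all genes in the 3 comparisons. Of 16 tested further tight junction genes, 2 rose and 2 fell in RANKL against ENRI, 2 rose and none fell against WENRC, and in WENRC against ENRI 1 rose and 5 fell (14.6% of all genes called there, 4.85% up and 9.74% down). Mylk, the myosin light chain kinase that opens the junction through actomyosin tension, had 12.76 and 12.81 in RANKL, 10.77 and 11.52 in ENRI, and 9.04 and 8.56 in WENRC. Its changes in RANKL were 1.64 over ENRI and 3.99 over WENRC (limma FDR 0.0146 and 0.00184). Igsf5, a junctional adhesion molecule also known as Jam4 but listed under another symbol, fell by 1.14 in RANKL against ENRI (limma FDR 0.00963). In WENRC against ENRI its change was -1.18 (limma FDR 0.0137).

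Of 17 Crumbs and basolateral polarity genes, 3 rose and 3 fell in RANKL against ENRI, 1 rose against WENRC, and 2 fell in WENRC against ENRI (20.9%, 12.1% and 14.6% of all genes). Mark2, the Par1 kinase that acts against Par3 on the lateral membrane, rose in both, with changes of 0.87 over ENRI and 1.15 over WENRC (limma FDR 0.0271 and 0.0169). Prkcz, an atypical protein kinase C that binds Par6, had a change of -1.09 in WENRC against ENRI (limma FDR 0.0153). Scrib had 0.72 and Llgl2 -0.79 in RANKL against ENRI (limma FDR 0.0190 and 0.0148). Llgl2 also had -0.74 in WENRC against ENRI (limma FDR 0.0238).

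Of 11 adherens junction genes, 1 rose and 2 fell in RANKL against ENRI, and 2 rose and 1 fell against WENRC (20.9% and 12.1% of all genes). Nectin1, an adhesion molecule of nascent contacts, had 11.51 and 11.66 in RANKL against 9.89 to 10.47 in the other 4 libraries, with changes of 1.41 and 1.52 (limma FDR 0.0113 and 0.0122). Of 10 desmosome genes, Perp and Jup fell in RANKL against ENRI and Perp also against WENRC. The changes of Perp were -1.40 and -0.76 (limma FDR 0.00446 and 0.0309). Of 5 gap junction genes, 1 was called. Gjb2, connexin 26, had 10.33 and 10.45 in RANKL, 6.41 and 6.43 in ENRI, and 7.78 and 7.51 in WENRC, a change of 3.97 over ENRI (limma FDR 0.000963). Of 15 regulators of epithelial adhesion, 1 rose and 3 fell in RANKL against ENRI. The latter were Elf3, Spint1 and St14, with changes from -0.95 to -0.66. Spint1 also had -1.31 in WENRC against ENRI (limma FDR 0.00961).

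H3K27me3 was read from the authors' tables of regions that differ between RANKL and WENRC, with no replicate check and no ENRI library. A gene without a region may carry the mark equally in both cultures. Of the 52 genes, 11 had a region higher in RANKL within 5 kb of a start site (21.2%, against 19.1% of all genes), and 2 a region higher in WENRC (3.85%, against 5.44%). These shares are near the background. On autosomes 7 of 42 had a RANKL-higher region (16.7%, against 17.9%), and on the X chromosome 4 of 10 (40.0%, against 45.5%). Distances are those of the authors to the nearest annotated start, which can be an alternative one.

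**Figure D4:**
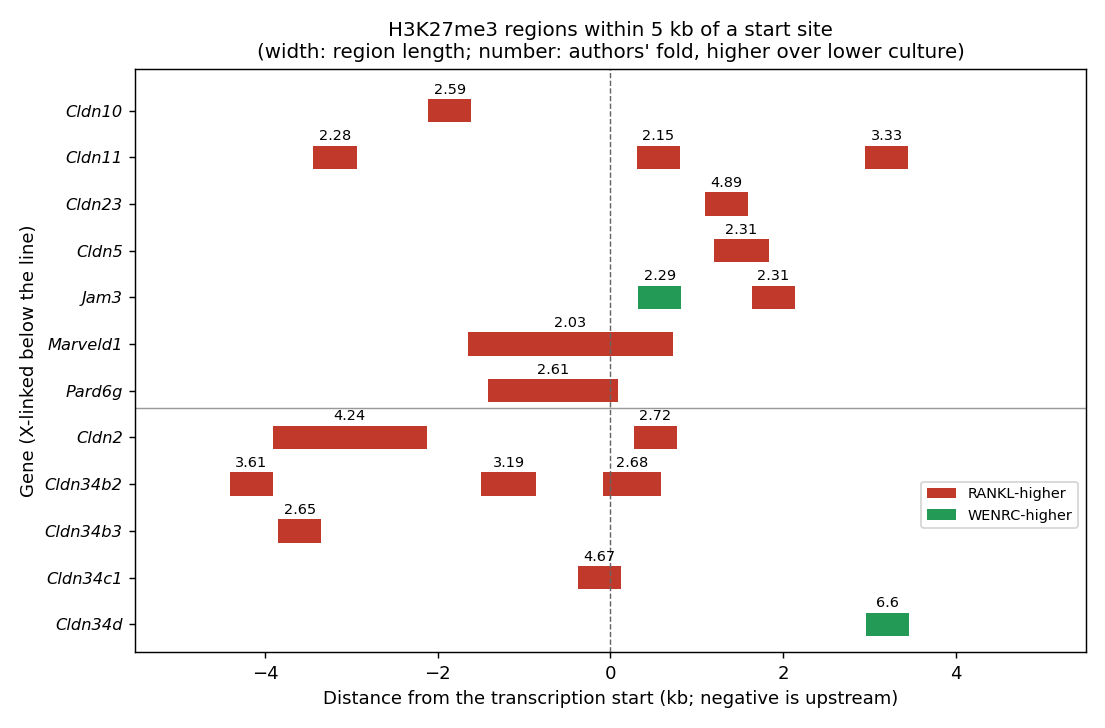
Bars are the authors' H3K27me3 regions within 5 kb of the start of a gene of the group, placed by distance from the start in kb, with the length of the region as width and the authors' fold printed above. Regions of Marveld1, Pard6g, Cldn34b2 and Cldn34c1 reach over the start, the region of Cldn23 lies 1346 bp behind it, and the longer of the Cldn2 regions lies before it.

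Cldn2 lay in several regions higher in RANKL. The region at -3017 bp from its start (chromosome X, 136331439 to 136333222) had 84 RANKL tags against 19.8 scaled WENRC tags, an authors' fold of 4.24. A second, 519 bp behind the start in intron 1, had 22 against 8.1 tags. Over the gene and 5 kb either side there were 5 regions covering 7588 bp, with 346 against 136.8 tags. Cldn2 was also lower in RANKL by GRO-seq, by -1.53. Regions higher in RANKL were frequent on the X chromosome, which held 7459 of 35798 (20.8%). Xist, the RNA of the inactive X, had GRO-seq values of 11.94 and 12.18 in RANKL. It had 4.52 in ENRI 1 and 10.90 in ENRI 2, and 5.42 in WENRC 1 and 11.60 in WENRC 2. The 2 mice, matched by number, thus differed in Xist in both cultures. The labels do not name the mouse of the WENRC ChIP-seq library. The part of the X chromosome in the Cldn2 regions was not tested. Its part in the GRO-seq difference of Cldn2, with 9.16 in WENRC 1 and 8.88 in WENRC 2, was not tested either.

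Within 5 kb of a start, the autosomal region of highest fold was in Cldn23. It lay 1346 bp behind the start in the single exon (chromosome 8, 36888017 to 36888517), with 22 RANKL tags against 4.5 scaled WENRC tags, a fold of 4.89. In GRO-seq Cldn23 had a change of -0.66 between these cultures (limma FDR 0.237). Of the regions within 5 kb of a start, that of Marveld1 had most tags, 170 against 83.7, a fold of 2.03 over 2367 bp across the start shown above (mm9 chromosome 19, 42220231 to 42222598). Its GRO-seq values were low in all libraries, 3.54 and 3.37 in RANKL, 3.18 and 3.16 in ENRI, and 3.45 and 3.77 in WENRC. Pard6g had a region of 1498 bp over its start with 54 against 20.7 tags, and GRO-seq values of 6.95 and 6.99 in RANKL, 6.74 and 6.84 in ENRI, and 6.82 and 7.19 in WENRC. Cldn10 had 1 region of fold 2.59 within 5 kb of a start, 5 over its gene body and 5 kb either side (135 against 53.1 tags, folds of at most 3.02), and GRO-seq values of 5.09 and 4.25 in RANKL, 4.01 and 4.77 in ENRI, and 4.16 and 4.67 in WENRC. Cldn11, a claudin of myelin and testis that did not pass the filter, had 3 regions with folds from 2.15 to 3.33 and GRO-seq values from 0.64 to 0.76. Cldn5, the endothelial claudin, had 1 region at its end (fold 2.31) and GRO-seq values from 0.59 to 0.73.

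Jam3 had regions of both directions in intron 1. The one 571 bp behind the start was higher in WENRC (54.9 scaled WENRC against 24 RANKL tags, fold 2.29), and one 1885 bp behind it was higher in RANKL (27 against 11.7 tags, fold 2.31). Its GRO-seq values were 7.69 and 7.71 in RANKL and 7.83 and 7.74 in WENRC. Among the Cldn34 genes, RANKL-higher regions lay at Cldn34b2, Cldn34b3 and Cldn34c1, whose GRO-seq values were at most 2.78. A WENRC-higher region lay at Cldn34d with 19.8 against 3 tags, a fold of 6.60. Over its gene body and 5 kb either side, Cldn34d also held 2 RANKL-higher regions, with 158 against 59.4 tags and folds of 2.47 and 3.07.

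Within gene bodies and 5 kb either side, whatever gene the authors assigned, 14 of the 52 genes held a RANKL-higher region (26.9%, against 28.1% of all genes) and 5 a WENRC-higher region (9.62%, against 13.6%). Magi2 held 6 WENRC-higher regions with 164.7 against 45 tags and 1 RANKL-higher region. Pard3b, the gene that rose in RANKL over WENRC, held 1 WENRC-higher region (30.6 against 9 tags) and no RANKL-higher one. Cldn14 held both kinds. Pard6b, Cgn, F11r, Magi3, Marveld3 and Cldn7 held none of either kind.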

How the data were processed

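Per the file headers, the authors summed GRO-seq reads over whole RefSeq genes (mm9) with HOMER's analyzeRepeats.pl and compared cultures with getDiffExpression.pl. The submitters' processing notes name Bowtie2 2.3.4.1, HOMER and DESeq2, with strand handling, read filters and the transform not given in the sources used here. The deposited GRO-seq values are log2 values normalized between libraries. The authors' log2 fold change, p-value and adjusted p-value per pair were turned so that each change is first-named minus second-named culture. Per the file headers, H3K27me3 regions were called in one culture with the other as control. Deposited RANKL tags are counts in the RANKL table and a signal with a floor in the WENRC table, and deposited WENRC tags are a signal scaled to the RANKL depth. The authors' fold is a ratio of these, given with the authors' p-value.

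The members and lists were chosen with earlier results of these data known. Log2 values as deposited were fitted with limma 3.58.1 (R 4.3.3), with 3 group means over 6 libraries and a variance trend. P-values are two-sided and Benjamini-Hochberg adjusted over 16563 genes. Rows at 0 throughout (2131 genes) were not fitted. The fit was tested on simulated data. Genes described with full values were those called in any comparison or with an H3K27me3 region within 5 kb of a start. Other genes were named as the 3 called genes of smallest p per list at most. Cldn15, Cldn4, Cgnl1, Magi2 and Cldn34d were singled out, and the Pard6b and Pard3b promoters added, after their values were seen. The Cldn34c1 promoter is not shown, since its transcription did not pass the filter. ENRI and WENRC libraries of mouse 1 or mouse 2 come from the same animal, per the labels. The table's columns carry the numbers 1 and 2 without the word mouse and were matched by number, on which the mouse values and the block rest. Same-numbered columns were compared, and their deviations correlated across genes (r of 0.414). Alternatives were other library sets, a replicate block, other scalings, filters and moderation, the authors' calls, and for regions the distance, the fold and the gene body. Values of 1 gene of the group, which stays in the counts, are not reported here or drawn.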

Additional observations from a re-analysis of the deposited data

How the results depend on the processing

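Counts of called genes moved by over 1.5 times under several alternatives. RANKL against ENRI (5 called) ran from 0 to 10 with single libraries left out, 0 without either RANKL library, where the lone library is assumed to vary like the other cultures, and 9 or 10 without an ENRI library. RANKL against WENRC (6) ran from 0 to 12 likewise, 0 without any one of the 4 libraries compared and 12 without an ENRI library. It was 12 with only the 4 libraries compared, 10 in the authors' deposited table, 3 with the replicate block (Cldn2, Magi3 and Pard3b) and 2 with quantile normalization. WENRC against ENRI (3) ran from 0 to 10 without single libraries: 0 without either RANKL or either WENRC library, 10 without ENRI 1 and 7 without ENRI 2. It was 0 with only the 4 libraries compared, also with the replicate block. It was 1 (Pard6b) with the replicate block over all libraries, with either other scaling, without a filter or without a variance trend, and 5 with the RANKL libraries outside the block, an alternative chosen after seeing the data. Scaling alone turned the split of RANKL against WENRC from 4 higher and 2 lower to 0 and 2. The cause of these moves was not tested. The RANKL numbers pair with no mouse, and their deviations correlated with r of -0.205 with ENRI and -0.323 with WENRC.

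The signs of the 9 called genes held in all alternatives where they were called in the main comparison. Signs turned for 2 uncalled changes: Pard3b in WENRC against ENRI, at -0.11, became 0.00075 under upper-quartile recentring, 0.34 under quantile normalization, and with single libraries left out ran from -0.41 to 0.18 (0.18 without ENRI 1 and 0.08 without WENRC 2). Cgn in RANKL against ENRI, at 0.06, ran from -0.026 to 0.15 with single libraries left out (-0.026 without RANKL 2).

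The 11 genes with a RANKL-higher H3K27me3 region became 6 within 1 kb of the start (11.5%, against 10.5% of all genes), 24 at any distance (46.2%, against 33.7%) and 3 at a fold of at least 4 (5.77%, against 3.04%). The 2 with a WENRC-higher region became 1 (1.92%, against 1.24%), 19 (36.5%, against 24.0%) and 1 (1.92%, against 1.37%), and 5 over gene bodies (9.62%, against 13.6%), an alternative chosen after seeing the data. On autosomes the RANKL-higher shares were 7.14% within 1 kb, 35.7% at any distance and 2.38% at that fold. Those of all autosomal genes were 9.94%, 31.8% and 2.87%. The WENRC-higher shares on autosomes were 2.38%, 31.0% and 0%, against 1.23%, 23.0% and 1.39%. Depth limits the regions, several of which rest on fewer than 30 tags, and GRO-seq depth is unknown.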
